A study of Homo sapiens with 12 samples.

Results

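Glycolysis splits glucose into pyruvate, and the pentose phosphate pathway branches off after the first step to make reducing power and ribose. The genes described here were the 33 enzymes and carriers of these routes that were listed by name: glucose carriers, hexokinases and the later glycolytic enzymes, lactate dehydrogenases, lactate carriers, and 6 pentose phosphate enzymes. All 33 were found by gene symbol among the 25647 genes that occur in all 12 libraries. Many steps are run by several isozymes, gene copies with the same reaction and different tissue patterns, and cancer cell lines usually carry glycolysis at a high level whether or not oxygen is present. Several of the genes are textbook targets of the hypoxia-inducible factor, and the pentose phosphate enzymes include targets of the oxidative stress factor NRF2.

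Poly(A) RNA was sequenced from 3 established human cancer lines. By its name A549 is a line from a lung adenocarcinoma, HCT116 from a carcinoma of the colon, and MHCC97H from a hepatocellular carcinoma. Each line gave 4 libraries, treated with TSA at 1 µM, with GSK126 at 50 µM, with S2101 at 100 µM, or left untreated, in a study of proteins that lack evidence at the protein level. TSA (trichostatin A) blocks histone deacetylases, GSK126 blocks the histone methyltransferase EZH2, and S2101 blocks the histone demethylase LSD1. HCT116 was grown in RPMI medium and the other lines in DMEM, so effects of the medium and of the line cannot be told apart. The sources used here give neither the length of treatment nor the vehicle. The 3 lines are the replicates of a condition (n = 3), with 1 library per line and no repeat cultures named. The p-values of the treatment comparisons therefore measure how responses vary between lines, not between repeat cultures. In the tests of single genes this spread was pooled over all 12 libraries, so it draws on all 3 compounds and not on 1 compound alone.

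Library totals ran from 14468304 to 19061367 counts. In MHCC97H, 5 of 8 liver markers reached 1 CPM (library-scaled count) untreated, with ALB at 0.0904 to 0.459 RPKM (reads per kilobase of transcript, scaled to library size) and HNF4A at 9.30 to 14.4 RPKM. The 8 gut markers summed to 1180 to 2413 CPM in MHCC97H, with KRT20 at 570.5 to 1234 RPKM, against 126.8 to 309.2 CPM in HCT116, where EPCAM led at 62.8 to 170.4 RPKM and CDX1 was at 0. In A549, 1 of 8 lung markers reached 1 CPM untreated, their sum was 2.56 to 4.73 CPM, and AQP5 was at 0. Of the 8 gut markers, 2 reached 1 CPM in untreated HCT116, against 4 in untreated MHCC97H and 3 in untreated A549. CDX2 was highest in HCT116, at 5.06 to 5.32 RPKM, where KRT20 was at 0.204 to 1.11 RPKM. These markers therefore leave the tissue labels of MHCC97H and A549 in doubt and do not settle that of HCT116. The comparisons between lines rest on the labels. In A549, 284 genes had 0 reads untreated and at least 1 CPM under TSA, and their summed level in the S2101 library was 9.09% of that under TSA, against 4.52% in the GSK126 library. The like share was 2.17 to 4.25% in the GSK126 and S2101 libraries of the other lines.

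Of the 33 genes, 15 had a median of at least 100 RPKM over the 12 libraries and 6 had a median under 5 RPKM. GAPDH, which oxidises glyceraldehyde phosphate, was the highest, at 2177 to 4045 RPKM. PKM, the pyruvate kinase of most tissues, was next with a median of 1102 RPKM, ahead of ENO1, the ubiquitous enolase, with 859.9 RPKM. At the low end stood PKLR, the liver and red cell pyruvate kinase, with 13 to 40 reads a library, and PGAM2, the muscle phosphoglycerate mutase, with 12 to 88 reads.

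The summed counts of the 33 genes overlapped between conditions. They made up 1.92% of counts in A549, 2.08% in HCT116 and 1.99% in MHCC97H under TSA, against 2.31%, 1.81% and 1.84% in the same untreated lines. The TSA mean was 1.997 ± 0.0788% and the untreated mean 1.99 ± 0.279% (SD, n = 3 lines each; exact two-sided sign-flip test over lines, p = 1). Under GSK126 the mean was 1.79 ± 0.372% and under S2101 1.83 ± 0.491%, with exact p = 0.25 and p = 0.50, where 0.25 is the smallest p that 3 pairs can give. Under TSA the sum was lower than untreated in A549 and higher in the other lines, and under GSK126 it was lower in 3 of 3 lines.

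Promoters of 3 genes that the results below turn on are shown first. They are 300 bases each from RefSeq on GRCh38.p14, running from 250 bases before the gene's start to 50 bases after it, and were chosen after the values were seen. Capitals mark each match on either strand: ACGTG, the core of the hypoxia-inducible factor site, in ALDOC and LDHA, and TGACNNNGC, the core of the antioxidant response element that NRF2 binds, in PGD, with other motifs left in lower case.
ALDOC, chr17:28576846-28577145, minus strand, the aldolase that rose most under TSA: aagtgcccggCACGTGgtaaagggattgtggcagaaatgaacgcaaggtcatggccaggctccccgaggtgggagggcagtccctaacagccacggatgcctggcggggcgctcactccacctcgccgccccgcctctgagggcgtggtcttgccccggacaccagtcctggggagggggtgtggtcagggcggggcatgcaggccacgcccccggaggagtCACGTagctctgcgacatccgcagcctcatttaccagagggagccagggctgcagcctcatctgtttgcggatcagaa
LDHA, chr11:18394313-18394612, plus strand, a lactate dehydrogenase that was higher in A549: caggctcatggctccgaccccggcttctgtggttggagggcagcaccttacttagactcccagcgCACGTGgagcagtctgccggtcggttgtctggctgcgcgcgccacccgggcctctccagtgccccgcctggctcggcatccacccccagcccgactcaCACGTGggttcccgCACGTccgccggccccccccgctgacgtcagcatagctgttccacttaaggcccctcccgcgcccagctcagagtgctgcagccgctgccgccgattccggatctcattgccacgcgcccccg
PGD, chr1:10398814-10399113, plus strand, the pentose phosphate enzyme with the largest deficit in HCT116 against the other lines: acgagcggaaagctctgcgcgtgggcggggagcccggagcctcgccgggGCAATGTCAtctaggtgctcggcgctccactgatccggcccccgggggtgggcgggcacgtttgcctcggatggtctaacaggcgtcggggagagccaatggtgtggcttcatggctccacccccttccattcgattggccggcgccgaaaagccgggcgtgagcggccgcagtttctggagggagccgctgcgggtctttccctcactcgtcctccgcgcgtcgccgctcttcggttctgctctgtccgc

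Promoters of 30 of the 33 genes were found, all but those of SLC2A3, PFKFB2 and SLC16A1. ACGTG was present in 10 of the 30 (33.3%) and in 21.4% of 35116 promoters of the same length, with 3 matches in ALDOC and 5 in LDHA, where each CACGTG is read on both strands and counts as 2 overlapping matches. The full E-box CACGTG, which contains ACGTG, was in 13.3% of the 30 and 7.26% of all. TGACNNNGC was in 6 of the 30 (20%) and in 13.3% of all, and the GC box GGGCGG in 24 of the 30 (80.0%) and in 45.0% of all. No ACGTG lay in the windows of ENO1, PFKP or TKT, which says only that these letters are not there.

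All 33 genes passed the filter on low counts. Under TSA, 5 of the 33 rose and 11 fell (edgeR quasi-likelihood test, Benjamini-Hochberg adjusted p under 0.05 over 16929 genes). Of all genes tested, 17.4% rose and 17.2% fell (34.6% in all). The share of the 33 that fell, 33.3%, stood above the background and the share that rose, 15.2%, near it. With a filter of 10 CPM in 3 libraries 7 fell, against 17.4% of all genes tested. The 33 were chosen with earlier results of these data known, so their shares are not an independent test. The median log2 change of the 33 was -0.05, against 0.08 for all genes tested. Those that rose were the glucose carrier SLC2A3, both aldolases ALDOC and ALDOA, the triose phosphate isomerase TPI1 and PGAM2. Those that fell lay in early glycolysis (GPI, PFKL, PFKP, PFKFB3), in its later part (PGAM1, ENO1, LDHB) and in 4 of the 6 pentose phosphate genes (PGLS, RPIA, RPE, TKT).

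**Figure D1:**
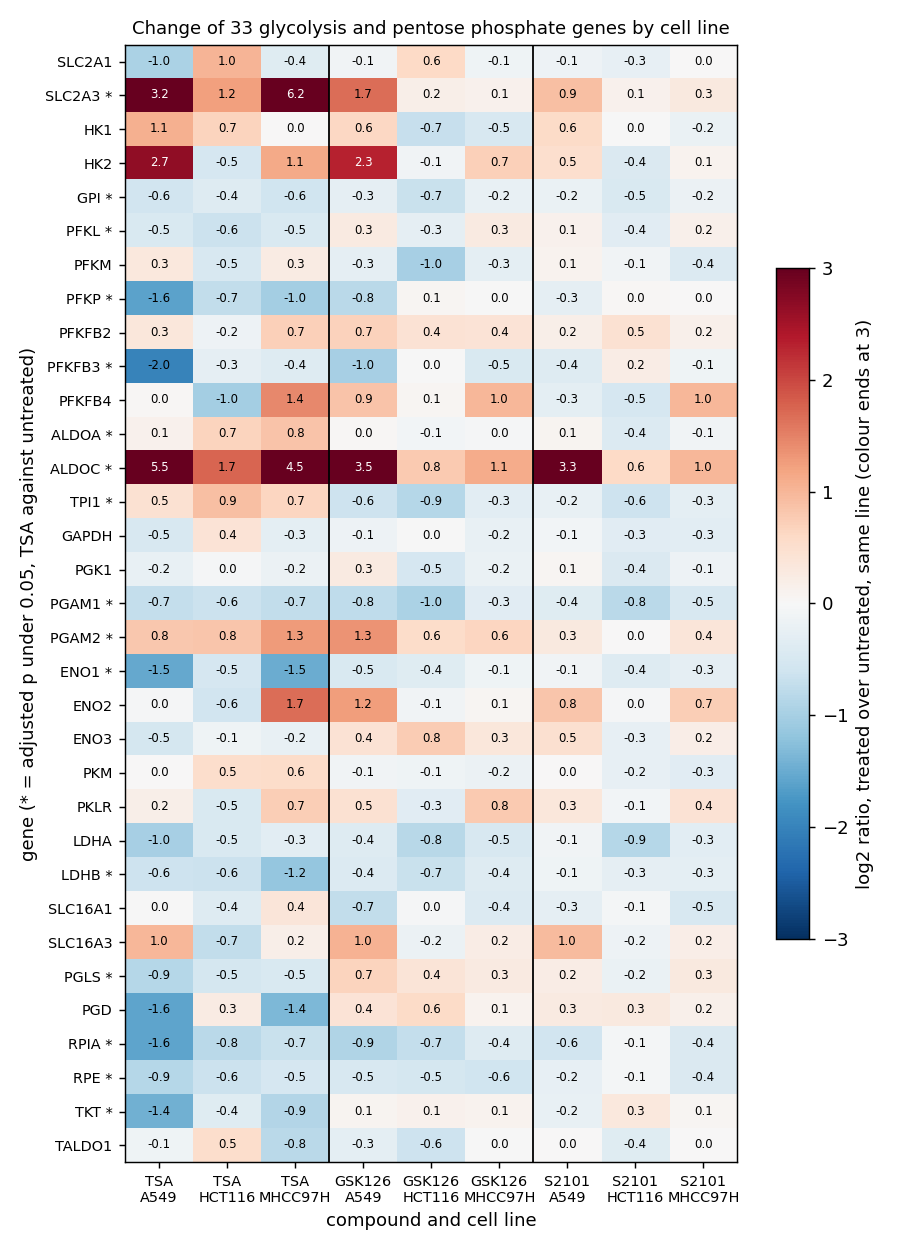
Log2 ratio of treated over untreated for the same line, from TMM-scaled CPM plus 1, for the 33 genes (top to bottom in pathway order) under TSA, GSK126 and S2101 in each line; stars mark adjusted p under 0.05 for TSA against untreated. ALDOC is red in all 9 columns, from 0.59 in HCT116 under S2101 to 5.45 in A549 under TSA, and the pentose phosphate genes PGLS, RPIA, RPE and TKT are blue in all 3 TSA columns.

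All 16 called genes moved the same way in 3 of 3 lines. Called or not, 7 of the 33 were higher in 3 of 3 lines and 14 lower, against 28.3% and 26.5% of all genes tested. These calls nevertheless rest on having all lines in the fit. Without A549 none of the 33 was called (11 of all genes were called higher and 1 lower). Without MHCC97H only SLC2A3 was called, when 3.69% of all genes tested were called higher and 3.35% lower. Without HCT116 12 of the 16 were called. With the 6 TSA and untreated libraries alone none of the 33 was called, and 0 of all 16468 genes tested. With the cell line left out of the model none of the 33 was called either, against 0.65% of all genes higher and 0.868% lower. Every called gene kept its direction in each of these fits.

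Among the glucose carriers, SLC2A3 (GLUT3, the high-affinity carrier best known from neurons; chr12:7919230-7936187 on GRCh38.p14) rose. SLC2A3 stood at 65.1 RPKM in A549, 4.25 in HCT116 and 40.7 in MHCC97H under TSA, against 5.59, 1.54 and 0.269 RPKM in the same untreated lines. TSA was above untreated in every line, by the least in HCT116, whose TSA library lay below untreated A549, so the groups overlapped. The log2 change was 4.54 ± 1.20 (SE; edgeR adjusted p = 0.0196), with log2 ratios of 3.25 in A549, 1.24 in HCT116 and 6.16 in MHCC97H. Under TSA, SLC2A3 made up 64.8% of the summed RPKM of SLC2A1 and SLC2A3 in A549, 5.68% in HCT116 and 53.3% in MHCC97H, against 8.72%, 4.50% and 0.675% untreated. SLC2A14, a near-identical neighbour, had 4.04 to 42.9% of the counts of SLC2A3 in each library, so how reads were divided between the copies is uncertain. SLC2A1 (GLUT1, the main carrier of cancer lines) was not called, with a log2 change of -0.03 ± 0.36 (adjusted p = 0.959) and opposite moves between lines.

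**Figure D2:**
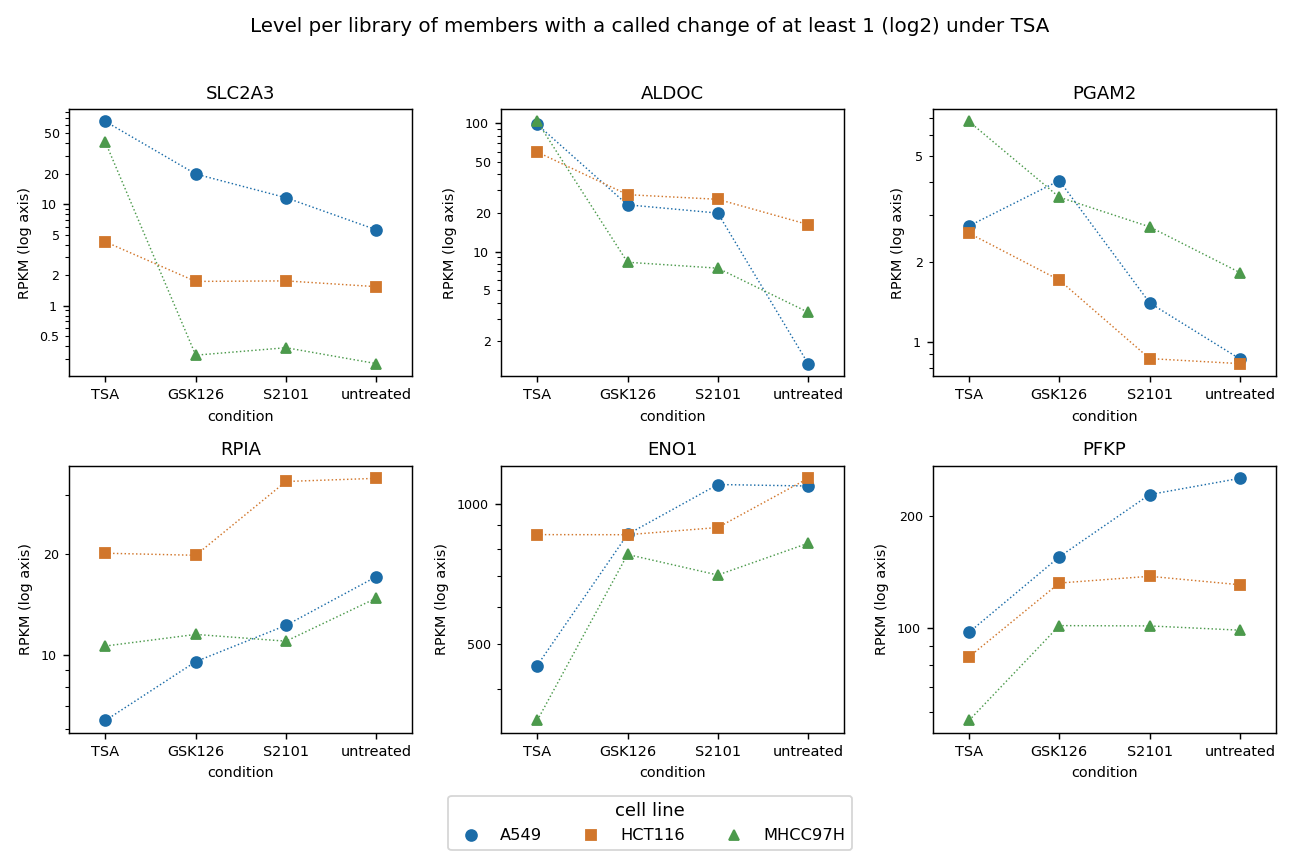
RPKM (log axis) in each library for the 6 genes with a called log2 change of at least 1 under TSA, by condition; each point is 1 library, colour and shape give the line, and dotted lines join the libraries of a line. ALDOC lies between 59.5 and 103 RPKM in the 3 TSA libraries, above every other library, while PFKP lies between 56.8 and 97.7 RPKM, below every other library.

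The hexokinases, which trap glucose in the cell, were not called under TSA. HK2, the isozyme typical of tumours, had log2 ratios of 2.67 in A549, -0.51 in HCT116 and 1.13 in MHCC97H (log2 change 1.25 ± 0.57, adjusted p = 0.113). HK1, the housekeeping isozyme, was higher in 3 of 3 lines, by 0.57 ± 0.25 (adjusted p = 0.105). GPI, which turns glucose 6-phosphate into fructose 6-phosphate, fell by 0.51 ± 0.15 on the log2 scale (adjusted p = 0.0293).

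Phosphofructokinase, the committed step of glycolysis, is built from liver (PFKL), muscle (PFKM) and platelet (PFKP) subunits. PFKP (chr10:3067548-3136805) was the most abundant of them per length in all 12 libraries. PFKP stood at 97.7 RPKM in A549, 84.0 in HCT116 and 56.8 in MHCC97H under TSA, against 252, 131 and 99.0 RPKM in the same untreated lines. All TSA libraries lay below all untreated ones, and the log2 change was -1.13 ± 0.19 (adjusted p = 0.00367). PFKL fell less (-0.53 ± 0.15, adjusted p = 0.0240) and PFKM was not called (0.03 ± 0.21, adjusted p = 0.930). PFKP's share of the summed subunit RPKM was 58.5 ± 11.2% under TSA and 70.9 ± 15.4% untreated (SD, n = 3 each), lower in 3 of 3 lines (exact sign-flip p = 0.25, the smallest possible).

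PFKFB3, the bifunctional enzyme that makes the phosphofructokinase activator fructose 2,6-bisphosphate, fell by 0.86 ± 0.30 on the log2 scale, at the edge of the threshold (adjusted p = 0.0498). The log2 ratio was -1.996 in A549, with -0.27 in HCT116 and -0.39 in MHCC97H. Its call held in 1 of the other 11 settings tried, with adjusted p from 0.0265 to 0.513. PFKFB2 and PFKFB4, the other family members, were not called (adjusted p = 0.249 and 0.794).

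Both aldolases rose. ALDOC (chr17:28573120-28576895), the brain-type aldolase, stood at 97.6 RPKM in A549, 59.5 in HCT116 and 103 in MHCC97H under TSA, against 1.34, 16.2 and 3.37 RPKM untreated. Every TSA library was above every untreated one, and A549 and MHCC97H, the lower lines untreated, were the higher ones under TSA. The log2 change was 3.98 ± 0.75 (adjusted p = 0.00555), with TMM-scaled means of 134.6 ± 40.5 CPM under TSA and 11.5 ± 12.5 CPM untreated (SD, n = 3 each). ALDOA, the muscle and general isozyme, kept most of the family's RPKM in every library and rose by 0.57 ± 0.19 (adjusted p = 0.0440). ALDOC's share of the 2 aldolases was 10.4 ± 3.62% under TSA and 1.53 ± 1.80% untreated, up in 3 of 3 lines (exact p = 0.25).

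In the triose stage, TPI1, which interconverts the 2 triose phosphates, stood at 900.4 RPKM in A549, 1044 in HCT116 and 837 in MHCC97H under TSA, against 557, 519.9 and 458 RPKM untreated. The TSA libraries lay above the untreated ones in every line, and the log2 change was 0.69 ± 0.18 (adjusted p = 0.0192). GAPDH (-0.10 ± 0.20, adjusted p = 0.725) and PGK1 (-0.14 ± 0.18, adjusted p = 0.562), the enzymes of the next steps, were not called. SPSB2 overlaps TPI1 on the opposite strand, but held 79 to 1028 reads a library against 6490 to 24952 for TPI1.

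The phosphoglycerate mutases moved in opposite directions. PGAM1, the general form, fell by 0.70 ± 0.16 (adjusted p = 0.0123), with log2 ratios of -0.71, -0.64 and -0.73 in A549, HCT116 and MHCC97H. PGAM2 (chr7:44062727-44065567) stood at 2.73 RPKM in A549, 2.57 in HCT116 and 6.76 in MHCC97H under TSA, against 0.862, 0.828 and 1.82 RPKM untreated. Its TSA libraries all lay above the untreated ones, with a log2 change of 1.55 ± 0.36 (adjusted p = 0.0116), yet it stayed a small share of the pair. PGAM4, a near-identical copy of PGAM1, held 31.4 to 37.1% of PGAM1's counts in every library, so the 2 cannot be told apart. DBNL overlaps PGAM2 on the opposite strand with 456 to 1804 reads a library, and strand handling is not given, so the low PGAM2 counts are uncertain.

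ENO1 (chr1:8861000-8878686) stood at 448 RPKM in A549, 860.1 in HCT116 and 341 in MHCC97H under TSA, against 1095, 1138 and 824 RPKM untreated. TSA was below untreated in every line, by the least in HCT116. On RPKM the TSA library of HCT116 lay above untreated MHCC97H, and on TMM-scaled CPM the groups did not overlap. The log2 change was -1.12 ± 0.25 (adjusted p = 0.0107). ENO2, the neuronal enolase, was not called (0.48 ± 0.49, adjusted p = 0.467), with a ratio of 1.66 in MHCC97H and -0.58 in HCT116. ENO3, the muscle enolase, was not called either (-0.40 ± 0.29, adjusted p = 0.303).

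At the end of glycolysis, PKM was higher in 3 of 3 lines under TSA, without passing the threshold (0.38 ± 0.17, adjusted p = 0.105), and PKLR was not called (adjusted p = 0.766). LDHB, the lactate dehydrogenase subunit that favours making pyruvate, stood at 537 RPKM in A549, 505 in HCT116 and 340.1 in MHCC97H under TSA, against 697, 737 and 655 RPKM untreated. The TSA libraries all lay below the untreated ones, and LDHB fell by 0.79 ± 0.16 (adjusted p = 0.00693). LDHA, the subunit that favours making lactate, was lower in 3 of 3 lines and not called (-0.56 ± 0.22, adjusted p = 0.0773). LDHA's share of the 2 subunits was 44.1 to 49.2% in the TSA libraries and 32.6 to 55.7% in the untreated ones. The lactate carriers SLC16A1 (MCT1) and SLC16A3 (MCT4) had log2 changes of 0.02 ± 0.23 and 0.12 ± 0.27, neither called (adjusted p = 0.957 and 0.757).

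Of the pentose phosphate genes, 4 of 6 fell and none rose. RPIA (chr2:88691673-88750929), the ribose phosphate isomerase, stood at 6.36 RPKM in A549, 20.1 in HCT116 and 10.6 in MHCC97H under TSA, against 17.1, 33.6 and 14.7 RPKM untreated. It was lower in every line, and the groups overlapped because HCT116 was high in both conditions. RPIA changed by -1.05 ± 0.22 (adjusted p = 0.00749) and TKT, the transketolase of the non-oxidative branch, by -0.89 ± 0.20 (adjusted p = 0.00996). TKT stood at 187, 123 and 142 RPKM in A549, HCT116 and MHCC97H under TSA, against 429.7, 149 and 226 RPKM untreated, with the smallest difference in HCT116. RPE, the ribulose phosphate epimerase, fell by 0.68 ± 0.15 (adjusted p = 0.0103), and PGLS, the lactonase of the oxidative branch, by 0.65 ± 0.21 (adjusted p = 0.0413). The copy RPEL1 held 8.41 to 11.7% of RPE's counts. PGD, the second dehydrogenase of the oxidative branch, had log2 ratios of -1.58 in A549, 0.25 in HCT116 and -1.36 in MHCC97H and was not called (-0.81 ± 0.34, adjusted p = 0.0947). TALDO1, the transaldolase, was not called (-0.05 ± 0.31, adjusted p = 0.907).

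On TMM-scaled CPM, the 3 TSA libraries all lay above the 3 untreated ones for ALDOC, TPI1 and PGAM2, 3 of the 33 genes, against 11.7% of all genes tested. They all lay below for PFKP, ENO1, LDHB and PGLS, 4 of the 33, against 11.2% of all genes. Both shares were near the background. In bulk samples, fewer cells of a kind and less RNA per cell cannot be told apart.

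Of the other genes of the same routes, 33 were in the tables, 25 were tested, and under TSA 9 rose and 6 fell (36% and 24% of those tested, against 17.4% and 17.2% of all genes tested). The largest changes were in genes at low level. PCK1, the enzyme that starts gluconeogenesis, had 26 reads in A549, 8 in HCT116 and 13 in MHCC97H under TSA and 0 in all untreated libraries, at least 17.0-fold higher with the untreated group set at 3 reads in all. FBP2, the muscle fructose bisphosphatase, had 271 reads under TSA and 19 untreated, a log2 change of 3.70 (adjusted p = 0.0106), and LDHD, the D-lactate dehydrogenase, had 483 and 47 reads, a log2 change of 3.62 (adjusted p = 0.00589). SLC2A4, the insulin-responsive glucose carrier, changed by 2.26, SLC2A12, another carrier, by 1.39, and BPGM, which makes 2,3-bisphosphoglycerate, by 1.16 (adjusted p = 0.0137, 0.0230 and 0.00494). SLC2A4 moved least in HCT116, at 7.28 TMM-scaled CPM under TSA and 6.09 untreated. GCKR, the glucokinase regulator, fell by 2.56 and GAPDHS, the sperm GAPDH, by 1.10 (adjusted p = 0.0167 and 0.0215). In MHCC97H GCKR stood at 1.66 TMM-scaled CPM under TSA and 13.5 untreated. It was low in the other lines, at 0.185 and 1.03 CPM in A549 and 0.0601 and 0 CPM in HCT116.

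Of 27 genes for pyruvate use and for regulation of these routes, 10 rose and 3 fell under TSA (37% and 11.1%, against 17.4% and 17.2% of all genes tested). The genes of this list, too, were chosen with earlier results of these data known. TXNIP, which holds back glucose uptake, stood at 304.5 TMM-scaled CPM in A549, 0.120 in HCT116 and 169 in MHCC97H under TSA, against 0.483, 0.0586 and 5.41 CPM untreated. It was higher under TSA in A549 and MHCC97H and near 0 in HCT116 in both conditions (log2 change 6.28, adjusted p = 0.00274). Its relative ARRDC4 rose by 3.81 (adjusted p = 0.00968), and MPC1, a subunit of the mitochondrial pyruvate carrier, by 2.09 (adjusted p = 0.00206). MLXIPL, the glucose-sensing factor ChREBP, passed the test with a log2 change of 2.38 (adjusted p = 0.0299), but not in the same direction in every line. It stood at 21.9 TMM-scaled CPM in A549, 27.4 in HCT116 and 22.1 in MHCC97H under TSA, against 2.07, 38.6 and 1.83 CPM untreated, so it was lower under TSA in HCT116. EGLN3, an oxygen-sensing hydroxylase, rose by 1.47 (adjusted p = 0.0157) and was at or near 0 in MHCC97H in both conditions. PPARGC1A, a co-activator of mitochondrial genes, had 98 reads under TSA and 3 untreated, a ratio of 35.4 (exact 95% counting interval 11.8 to 174.4), with 68 of the TSA reads in MHCC97H. HIF1A, NFE2L2 and MYC, regulators of many of the 33 genes, were not called (adjusted p = 0.165, 0.110 and 0.321), and are named here after their values were seen.

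GSK126 and S2101 gave no call among the 33 genes, and none among all genes (0% in each direction for both). At an unadjusted p under 0.05, 12 of the 33 differed under GSK126, against 16.6% of all genes tested, and 1 under S2101, against 5.03%. With GSK126 the lowest adjusted p was 0.107, for PGAM1 (-0.68 ± 0.16), followed by PGAM2 (1.41 ± 0.36, adjusted p = 0.116) and RPE (-0.54 ± 0.15, adjusted p = 0.131). With S2101 the lowest was 0.939, and PGAM1 again had the lowest unadjusted value (-0.55 ± 0.16).

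With the TSA libraries left out of the fit, 8 of the 33 were called under GSK126 and none under S2101. In that fit PFKFB2 (0.56) and PGAM2 (1.40) were higher and TPI1 (-0.57), PGAM1 (-0.66), LDHA (-0.55), LDHB (-0.46), RPIA (-0.66) and RPE (-0.51) lower in log2 change, when 6.42% of all genes tested were called higher and 6.63% lower. DESeq2 called PGAM1, RPIA and RPE lower under GSK126, with 3.83% of all genes. On TMM-scaled CPM, TPI1, ENO1 and LDHB lay lower in all GSK126 libraries than in all untreated ones, 3 of the 33, against 5.44% of all genes, and none lay above, against 3.73%. Under S2101 only LDHB lay below (2.58% of all genes) and none above (1.59%). In 3 of 3 lines, 9 of the 33 were higher and 14 lower under GSK126 (22% and 22.9% of all genes), and 5 were higher and 10 lower under S2101 (17.9% and 21%).

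ALDOC was higher than untreated in 3 of 3 lines under all 3 compounds. It stood at 23.1 RPKM in A549, 27.7 in HCT116 and 8.25 in MHCC97H under GSK126, and at 19.9, 25.5 and 7.42 RPKM under S2101, against the 1.34, 16.2 and 3.37 RPKM of the untreated lines. Both sets overlapped the untreated values, and neither passed the test (log2 change 1.67 ± 0.69, adjusted p = 0.263 for GSK126 and 1.48 ± 0.69, adjusted p = 0.939 for S2101). The A549 ratios, 3.54 and 3.32 on the log2 scale, were the largest, and the S2101 library of A549 is the one that carried 9.09% of the level of the TSA-induced genes; the part of either in the ALDOC values was not tested. The 3 treatments share the untreated libraries, so their values beside each other are not independent.

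Set directly against GSK126, TSA gave 6 of the 33 genes higher and 7 lower, against 14.7% and 14.2% of all genes tested (29% in all). Set against S2101 it also gave 6 higher and 7 lower, against 13.5% and 13.1% (26.6% in all). These comparisons were added after the values were seen, set 1 dose of one compound against another dose of another, and share the TSA libraries. TPI1 was at 389 RPKM in A549, 279 in HCT116 and 382 in MHCC97H under GSK126 and at 513, 347 and 379 RPKM under S2101, all below the 837 to 1044 RPKM of the TSA libraries. The log2 difference was 1.28 ± 0.18 against GSK126 (adjusted p = 0.00275) and 1.07 ± 0.18 against S2101 (adjusted p = 0.00568). PFKP was lower under TSA than under GSK126 (-0.87 ± 0.19, adjusted p = 0.0104) and S2101 (-1.04 ± 0.19, adjusted p = 0.00659), and TKT likewise (-0.99 ± 0.20, adjusted p = 0.00772, and -0.93 ± 0.20, adjusted p = 0.0109). PGD was lower than under GSK126 (-1.16 ± 0.34, adjusted p = 0.0330). Of the 13 calls in each comparison, 10 held against GSK126 and 8 against S2101 without HCT116, while 1 and 0 held without MHCC97H and 0 and 0 without A549.

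**Figure D3:**
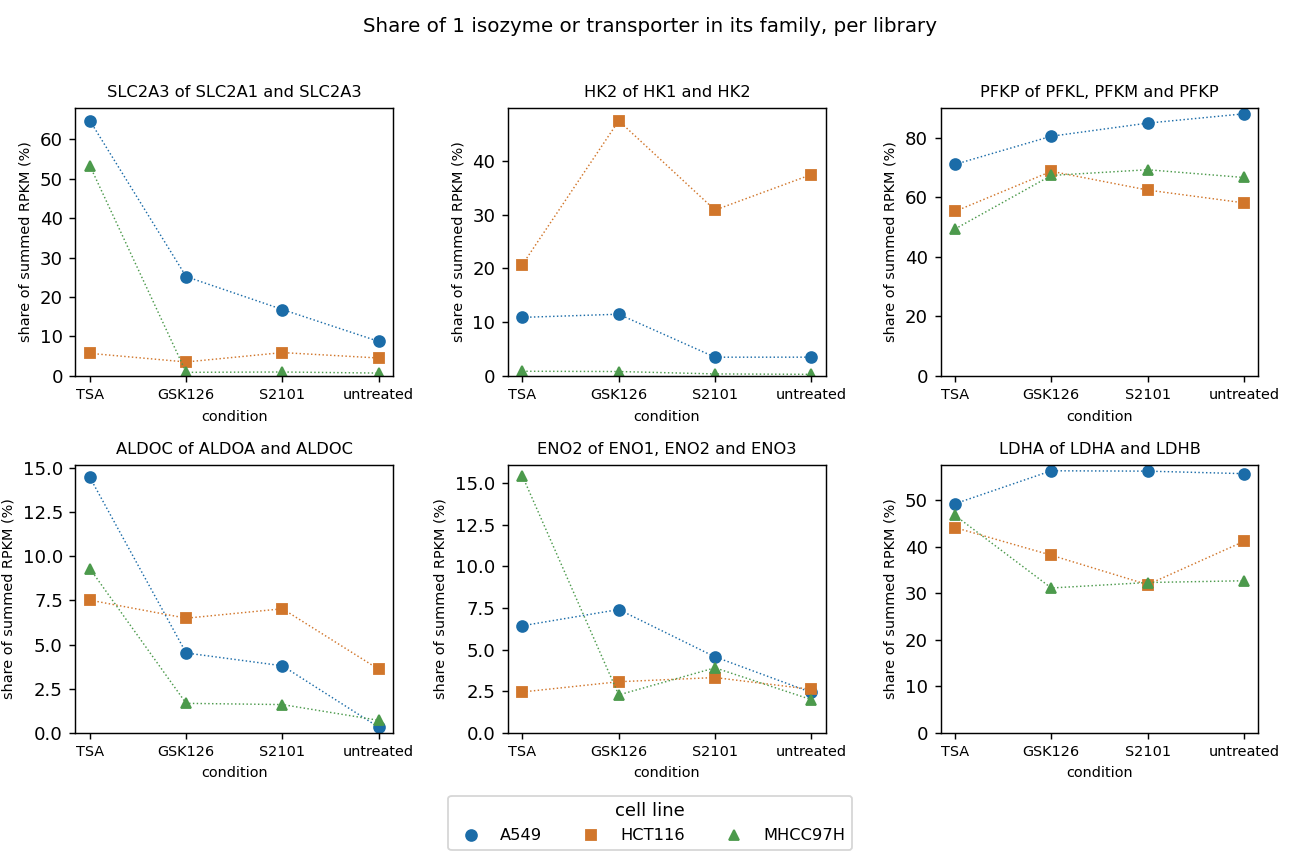
Share (%) taken by 1 isozyme or carrier of the summed RPKM of its family's members among the 33 genes, in each library, by condition. Colour and shape give the line, and dotted lines join the libraries of a line. SLC2A3 takes 64.8% and 53.3% under TSA in A549 and MHCC97H and 5.68% in HCT116, and the LDHA share lies closer together under TSA (44.1 to 49.2%) than untreated (32.6 to 55.7%).

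The plot of isozyme shares shows how the RNA of a step was divided among its copies per unit length. These are RNA levels, not protein or activity. In A549 and MHCC97H, SLC2A3 passed SLC2A1 under TSA only. HK2 was 47.5% of HK1 and HK2 in HCT116 under GSK126 and 37.5% untreated, and under 1% in all MHCC97H libraries. ENO2 took 15.4% of enolase RPKM in MHCC97H under TSA, against 1.98% untreated, with 2.45% and 2.60% in HCT116. With 3 pairs no share comparison can reach an exact p below 0.25.

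The lines were also compared with each other. A line was set against the mean of the others with condition held constant, so each line has 4 libraries, 1 per condition. The differently treated libraries of a line stand in as its replicates, so these p-values measure how the lines' difference varies over conditions, not between repeat cultures. In A549 11 of the 33 genes were higher and 4 lower (22.1% and 16.7% of all genes tested, 38.8% in all). In HCT116 6 were higher and 13 lower (27% and 25.7%, 52.7% in all), and in MHCC97H 8 were higher and 7 lower (25.5% in each direction, 51% in all). The share lower in HCT116, 39.4%, stood above its background, and 5 of the 6 pentose phosphate genes were among those lower there. Since the genes were chosen with earlier results of these data known, this share is not an independent test either.

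HK2 (chr2:74834127-74893359) had the largest fitted difference between a line and the others among the 33 genes. In HCT116 it stood at 11.7, 14.2, 11.9 and 15.7 RPKM under TSA, GSK126, S2101 and untreated, against 7.50, 5.31, 1.43 and 0.888 RPKM in A549 and 0.528, 0.318, 0.162 and 0.140 RPKM in MHCC97H. HCT116 was above and MHCC97H below all other libraries, and A549 lay between, with its higher values under TSA and GSK126. The log2 difference was 3.95 ± 0.40 for HCT116 (adjusted p = 5.8e-05) and -4.56 ± 0.51 for MHCC97H (adjusted p = 9.9e-05).

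**Figure D4:**
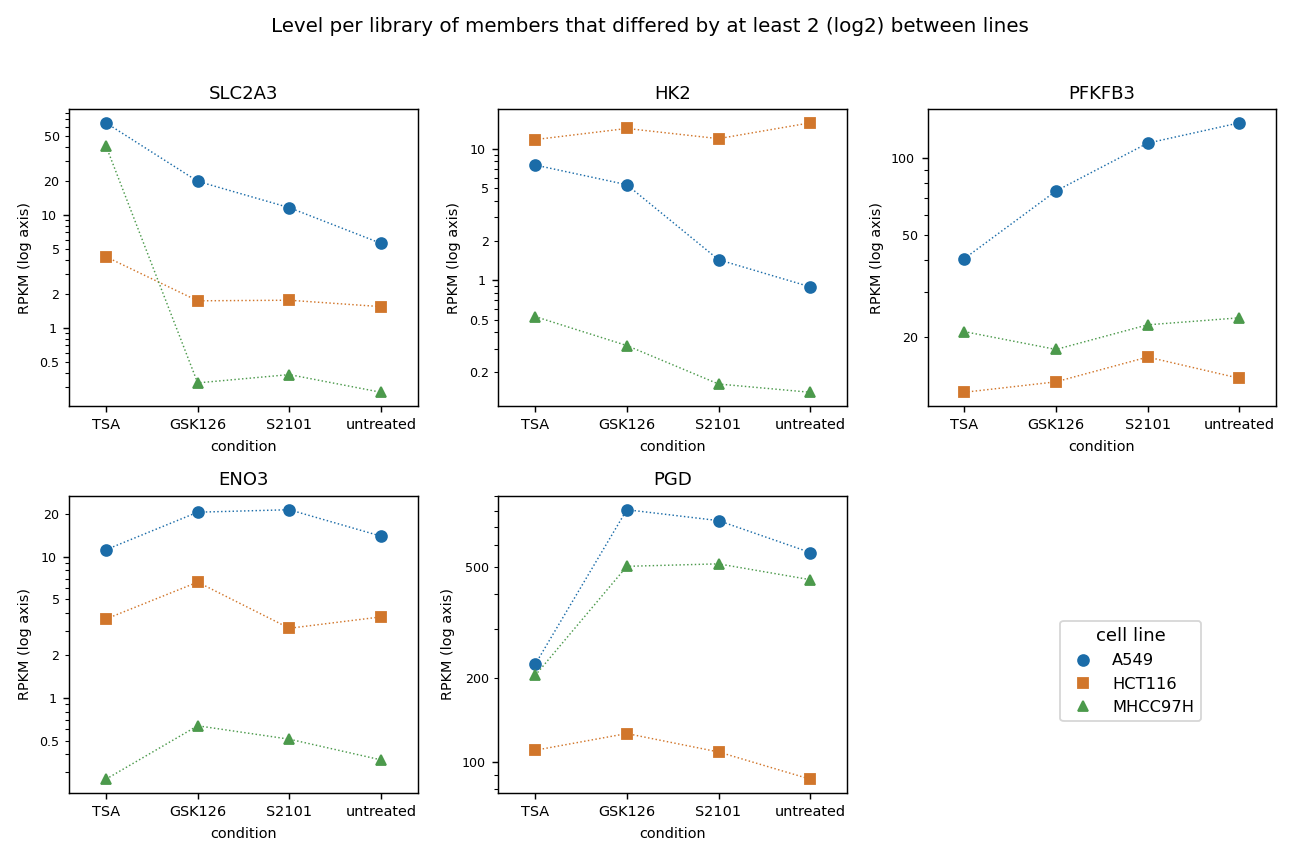
RPKM (log axis) in each library for the 5 genes with a called log2 difference of at least 2 between 1 line and the others, by condition; colour and shape give the line and dotted lines join the libraries of a line. HK2 is highest in HCT116 at 11.7 to 15.7 RPKM, ENO3 is highest in A549 at 11.2 to 21.5 RPKM, and PGD is lowest in HCT116 at 86.6 to 126 RPKM in every condition.

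ENO3 (chr17:4948710-4957129) stood in A549 at 11.2, 20.6, 21.5 and 13.95 RPKM under TSA, GSK126, S2101 and untreated, against 3.62, 6.601, 3.11 and 3.75 RPKM in HCT116 and 0.267, 0.636, 0.511 and 0.365 RPKM in MHCC97H. The lines did not overlap, and the log2 difference was 3.59 ± 0.20 for A549 (adjusted p = 5.1e-06) and -4.10 ± 0.27 for MHCC97H (adjusted p = 6.0e-06). MHCC97H had 6 to 16 ENO3 reads a library. PFN1 overlaps ENO3 on the opposite strand with 5968 to 25662 reads, so ENO3 counts are uncertain where strand was not kept.

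PFKFB3 (chr10:6144921-6326637) stood in A549 at 40.6, 74.6, 115 and 138 RPKM under TSA, GSK126, S2101 and untreated, against 12.2, 13.4, 16.8 and 13.9 RPKM in HCT116 and 21.1, 18.0, 22.4 and 23.9 RPKM in MHCC97H. Every A549 library was above the others, with a log2 difference of 2.31 ± 0.21 (adjusted p = 6.9e-05), and the TSA library was the lowest of the A549 ones. SLC2A3, whose values stand above, was higher in A549 by 3.14 ± 0.74 (adjusted p = 0.00917), with overlap between lines through the TSA library of MHCC97H.

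PGD (chr1:10399064-10420511) stood in HCT116 at 110.1, 126, 109 and 86.6 RPKM under TSA, GSK126, S2101 and untreated, against 224, 806, 737 and 566 RPKM in A549 and 204, 505, 515 and 452 RPKM in MHCC97H. HCT116 was below every other library, with a log2 difference of -2.18 ± 0.29 (adjusted p = 0.000247). The lines were closest under TSA, where A549 and MHCC97H were at their lowest. TALDO1 (-1.51 ± 0.25, adjusted p = 0.000885), TKT (-0.96 ± 0.15, adjusted p = 0.000759), RPE (-0.78 ± 0.12, adjusted p = 0.000530) and PGLS (-0.55 ± 0.16, adjusted p = 0.0172) were lower in HCT116 as well, while RPIA was higher (1.06 ± 0.16, adjusted p = 0.000470).

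In A549, LDHA was higher by 1.23 ± 0.16 (adjusted p = 0.000413), GPI by 1.09 ± 0.11 (adjusted p = 0.000113) and TKT by 0.98 ± 0.14 (adjusted p = 0.000744). MHCC97H had the most TALDO1 (1.62 ± 0.22, adjusted p = 0.000346) and PGK1 (1.04 ± 0.13, adjusted p = 0.000214), with all 4 of its libraries above the other 8 for both genes. HCT116 had more SLC16A1 (0.93 ± 0.17, adjusted p = 0.00138) and SLC16A3 (0.82 ± 0.20, adjusted p = 0.00689) and less PKM (-0.80 ± 0.13, adjusted p = 0.000859). Libraries of 1 line lay apart from all others, on TMM-scaled CPM, for 3 genes above and 2 below in A549 (5.37% and 3.64% of all genes), 3 above and 6 below in HCT116 (9.23% and 9.26%), and 2 above and 2 below in MHCC97H (8.52% and 7.60%).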

How the data were processed

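Poly(A) RNA of 12 libraries (3 lines, 4 conditions) was analysed from 1 table per library. The deposited tables hold counts per gene, which are whole numbers with no normalization, and RPKM values made by the authors. The submitters' processing notes name GRCh38 and hg38. The aligner is not given in the sources used here, nor are the counter, strand handling and the treatment of shared reads. An entry naming no gene was dropped.

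Counts were tested with edgeR 4.0.16 (R 4.3.3): TMM scaling, filterByExpr given the model, a quasi-likelihood test on condition plus line over all 12 libraries, and Benjamini-Hochberg adjustment over 16929 genes at 0.05. The filter was changed to the model design after results had been seen, and the condition-group filter was kept as an alternative. Line is the block: same-numbered libraries are the same line, and their deviations correlated at r = 0.67 to 0.954. SE is the log2 change over the square root of F. Within-line ratios used log2(TMM-scaled CPM + 1). Sums and shares had an exact sign-flip test over lines. Tested on simulated data with 4-fold changes, the TSA comparison recovered 151 of 200 changed genes among 16664 (10 unchanged genes called). The A549 line comparison recovered 181 of 200 among 16468 (11 called). For TSA each changed gene was given the same change in every line, and only 200 genes changed. In the data 34.6% of genes were called under TSA and responses differed between lines, so these figures cannot say how the test does there. Alternatives were DESeq2 1.42.0, RLE factors, other filters, other sample sets and leaving out lines.

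Totals of 14468304 to 19061367 counts limit genes with few reads; counting intervals cover counting error only. No libraries were duplicates (lowest chi-square per gene 10.3).

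The members and lists were chosen with earlier results of these data known. All 33 members are named. Values in every library are given for members called with a log2 change of at least 1 under a treatment or 2 between lines. Other pathway genes and regulators are named by size among those called, and markers by list.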

Additional observations from a re-analysis of the deposited data

Results flagged for a closer look

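Lines moving in opposite directions by at least 0.5 on the log2 scale, a threshold chosen after the data were seen, were found for 8 gene and compound pairs. The differences between lines were not tested, since each line has 1 library per condition. Values are log2 ratios of treated over untreated TMM-scaled CPM plus 1.

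Under TSA, SLC2A1 differed by 1.97 between HCT116 (1.01) and A549 (-0.96). HK2 differed by 3.18 between A549 (2.67) and HCT116 (-0.51). PFKFB4, one of the bifunctional regulators, differed by 2.46 between MHCC97H (1.44) and HCT116 (-1.02). ENO2 differed by 2.24 between MHCC97H (1.66) and HCT116 (-0.58). SLC16A3 differed by 1.75 between A549 (1.01) and HCT116 (-0.75). TALDO1 differed by 1.33 between HCT116 (0.52) and MHCC97H (-0.81). HCT116 was one of the opposed lines in all 6 of these pairs, and how often this held among all genes was not tested.

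Under GSK126, HK1 differed by 1.30 between A549 (0.62) and HCT116 (-0.68). Under S2101, PFKFB4 differed by 1.49 between MHCC97H (0.99) and HCT116 (-0.50).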

How the results depend on the processing

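The 16 TSA calls kept their direction under every setting that tested them. Leaving out a line gave 0 to 5 genes higher and 0 to 10 lower for TSA against untreated. Against GSK126 it gave 0 to 5 and 0 to 7, and against S2101 0 to 4 and 0 to 7. Without A549 or MHCC97H at most 3.69% of all genes tested were called in a given direction. With no replicate block, so that line was not paired, 0 genes were higher and 0 lower in these 3 comparisons, and likewise with the 6 libraries of the 2 conditions alone. A filter of 10 CPM in 3 libraries gave 7 lower against untreated and 3 lower against S2101. No filter gave 3 higher against GSK126. Without the S2101 library of A549 there were 2 higher against GSK126, and 3 higher and 2 lower against S2101. GSK126 against untreated gave 2 higher and 6 lower without the TSA libraries and 3 lower with DESeq2. With no condition term A549 had 7 higher and 2 lower and MHCC97H 4 higher. MHCC97H had 13 lower without the TSA libraries, and 5 higher without the GSK126, S2101 or untreated libraries. The causes were not tested.

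Leaving out a line turned the sign of some differences from untreated, in percentage points. The summed level under TSA ranged from -0.121 to 0.207, and without GAPDH it was -0.0209. Ranges were -0.410 to 8.32 for the SLC2A3 share under GSK126, -8.09 to 3.99 and -3.31 to 0.0356 for HK2 under TSA and S2101, -3.41 to 5.64 and -0.258 to 3.46 for PFKP under GSK126 and S2101, -4.41 to 1.13 for PFKFB3 under S2101, -0.0185 to 0.0111 for PKLR under TSA, -1.75 to 8.51 and -4.83 to 0.0836 for LDHA under TSA and S2101, and -2.96 to 6.69 for SLC16A3 under TSA.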
